A study of Mus musculus with 4 samples.

Results

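The core pluripotency transcription factor genes are the 10 mouse genes Pou5f1, Sox2, Nanog, Klf4, Klf2, Esrrb, Tfcp2l1, Prdm14, Tbx3 and Sall4. They were taken by name, and their replication timing was read from the 15 bins of 50 kb that overlap their gene bodies (mm10, GENCODE vM21), out of 51153 bins on the 19 autosomes and X. A further view took in the 41 bins centered on the bin of each gene start, 410 bins in all, which reach 1 Mb to each side. All 10 genes had a value, as did 21679 of the 21755 annotated protein-coding genes they are compared with.

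In mouse embryonic stem cells (mESCs), Pou5f1 (Oct4), Sox2 and Nanog form the center of a network of transcription factors that bind each other's genes and keep the cells undifferentiated. The Krüppel-like factors, Esrrb, Tfcp2l1, Tbx3 and Prdm14 hold the network in its naive state downstream of LIF and of the inhibitors of MEK and GSK3 that make up 2i, and Sall4 is a zinc finger partner of Oct4. The genome is copied in a set order, and expressed genes tend to be copied near the start of S-phase.

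Replication timing was measured by Repli-seq in diploid F121-9 cells, a hybrid cas/129 mESC line grown feeder-free in N2B27 medium with 2i and LIF. DNA made during a pulse of 2 h was tagged with the thymidine analog BrdU. Cells were sorted into an early and a late S fraction, each with 2 libraries. Both fractions come from this 1 untreated line, so the profile has no second genotype, medium or cell type to set against it. The deposited quantity, called RT here, is the log2 ratio of the early to the late fraction in a bin, with 1 value that combines the replicates and both homologs. Bins above 0 thus take a larger share of the early than of the late reads. Values lack a replicate error and the number of reads per bin is unknown. The spread from bin to bin inside regions of nearly constant timing gave a noise SD of 0.16 per bin, which does not cover differences between cultures. The assay reads DNA replication, so the level of these factors and of any marker of the cell type was not measured.

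All 10 genes replicated early. Their mean RT lay between 2.96 and 3.51, with a median of 3.37, compared with a median of 2.23 over all protein-coding genes. Of all protein-coding genes 72.5% had a mean RT above 0, and of all bins 40.9% did, against 10 of the 10 genes and 15 of their 15 bins. Among protein-coding genes 21.0% fell into the range that the 10 genes span, which the genes themselves define. The 10 genes lie on 9 chromosomes, with Prdm14 and Tfcp2l1 far apart on chromosome 1, so this narrow range was not that of a single domain.

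Among the factors at the center of the network, Pou5f1 had the highest RT of the 10 genes when read over the gene bodies. Pou5f1, which encodes the POU factor Oct4, lies at chr17:35506018-35510772 on the + strand, inside a single bin with an RT of 3.51, higher than 84.7% of protein-coding genes. Its place at the top rests on this 1 bin, and the bin before it had 2.71. With 1 more bin on each side Pou5f1 had 3.24, and with a running median over 5 bins 3.22. Klf2 was then the highest of the 10, at 3.57 and 3.53. Sox2, the HMG-box partner of Oct4, lies at chr3:34650405-34652461 on the + strand in a bin with an RT of 3.35, above 76.5% of genes. Nanog, a homeobox factor, lies at chr6:122707489-122714633 on the + strand and its bin had an RT of 3.17, above 69.9% of genes. Nanog was the second lowest of the 10, and its difference of 0.34 from Pou5f1 had a 95% interval from bin noise of -0.10 to 0.78, which includes 0.

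The Krüppel-like factors, zinc finger proteins that act in the naive state, lay near the top and at the bottom of the range. Klf2, at chr8:72319033-72321656 on the + strand, had an RT of 3.49 in its bin, above 83.6% of genes. Klf4, at chr4:55527143-55532466 on the - strand, had the lowest RT of the 10, 2.96, which still exceeded 63.7% of genes. The difference of 0.52 between them had an interval of 0.08 to 0.96, so these paralogs differed beyond bin noise. That noise was taken from regions of nearly constant timing. Klf4 lies outside them, on a slope of 7.50 log2 per Mb, and the next bin downstream had 3.30.

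The other factors of the naive state lay between these. The orphan nuclear receptor gene Esrrb, at chr12:86361117-86521628 on the + strand, is the longest of the 10 and covers 4 bins with RT of 3.46, 3.31, 3.30 and 3.39 from its start on, a mean of 3.37 with an SD over bins of 0.08. Its bins thus spread less than the noise of a single bin. Tfcp2l1, a grainyhead-family factor at chr1:118627945-118685168 on the + strand, had an RT of 3.26 in the bin of its start and 3.59 in the next, a mean of 3.42. That second bin was the highest of all 15. Prdm14, a PR-domain zinc finger factor at chr1:13113457-13127163 on the - strand, had an RT of 3.38 in its bin. The T-box gene Tbx3, at chr5:119670669-119684724 on the + strand, had an RT of 3.32 in its bin. Sall4, at chr2:168748332-168767943 on the - strand, had an RT of 3.39 in the bin that holds its start and 3.50 in the other, a mean of 3.45.

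From high to low the order by mean over the gene body was Pou5f1, Klf2, Sall4, Tfcp2l1, Prdm14, Esrrb, Sox2, Tbx3, Nanog and Klf4. None of the 9 neighboring pairs in this order differed beyond bin noise. The SD over the 10 genes was 0.16, as large as the noise of a bin, and 0.10 without Klf4. Of the 45 pairs, 5 differed beyond noise, and in each of them Klf4 was the lower gene, with Pou5f1, Klf2, Sall4, Tfcp2l1 or Esrrb above it. The largest of these differences was that of 0.54 between Pou5f1 and Klf4, with an interval of 0.11 to 0.98. These intervals are not adjusted for the number of pairs. They take the bins of a gene as independent, so genes with more bins have narrower intervals. Esrrb, with 4 bins, lay 0.40 above Klf4 and counts among the 5 pairs. Prdm14, with 1 bin, lay 0.41 above Klf4 and does not. All 5 pairs rest on the single bin of Klf4, on a steep slope where noise from nearly constant regions may not hold.

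**Figure D1:**
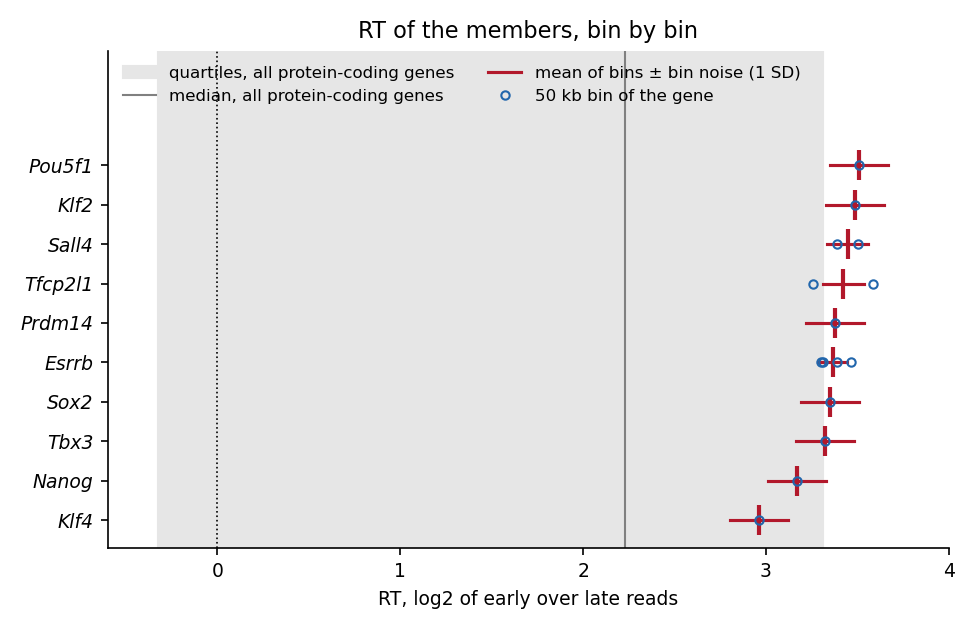
RT (log2 of early over late reads, horizontal axis) of the 10 genes ordered by mean. Circles are the 50 kb bins of a gene, the red tick is their mean and the red bar spans 1 SD of bin noise on each side, without replicate error. The gray band spans the quartiles of all protein-coding genes and the gray line their median of 2.23; all 10 genes lie to the right of that line, between 2.96 and 3.51.

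Read as a position in S-phase, these values are the start of the program. When the share of bins with a higher RT was taken as the share of a 10 h S-phase gone by, Pou5f1 was scheduled at 0.36 h and Klf4 at 1.22 h, a difference of 52.2 min. An RT of 0 was reached at 4.09 h on this scale. The scale is a rank of RT put into hours. With only an early and a late fraction sorted, times within the early fraction were not measured. The noise of a bin was equal to between 12.6 min for Klf4 and 15.9 min for Esrrb and Prdm14. The 10 genes were nonetheless not the earliest of the genome, since 15.2% of protein-coding genes had an RT above that of Pou5f1. Among the protein-coding genes with RT above 0, whose median was 2.96, 49.9% lay below Klf4 and 29.0% between Klf4 and Pou5f1.

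Although the genes themselves were so alike, the domains around them were not. Of the 410 bins within 1 Mb of the starts, 301 (73.4%) had an RT above 0, next to 63.8% over the windows of all protein-coding genes, and the share ranged from 46.3% around Nanog to 100% around Esrrb. In 8 of the 10 windows at least 1 bin lay below -1, as in 67.1% of the windows of all protein-coding genes and 55.5% of those with an early start bin. The mean RT of a window was lowest for Nanog, at -0.06, and Klf4, at 0.29, followed by Prdm14 at 0.92 and Sox2 at 1.01. The windows of Tfcp2l1, Tbx3 and Sall4 had means of 1.67, 1.70 and 1.82, and those of Klf2, Pou5f1 and Esrrb had 2.38, 2.65 and 2.97. The median of the 10 window means was 1.69, and that over the windows of all protein-coding genes was 1.06.

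Nanog, Klf4, Sox2 and Prdm14 lay in early domains of limited extent with later DNA on both sides. The early domain of a gene was taken as the unbroken run of bins with RT above 0 around its start, with its edges interpolated where RT crossed 0. Nanog had a run of 967 kb, with edges 611 kb upstream and 357 kb downstream of its start and RT falling to -2.89 and -3.60 beyond them. This was the window with the largest change of RT, 7.24 between its highest and lowest bins. Klf4 had a run of 1017 kb but sat close to its upstream edge, 189 kb away, with the other edge at 828 kb. RT rose from -2.94 at 600 kb upstream of Klf4 to 2.96 at its start and 3.30 in the next bin. The slope at Klf4, 7.50 log2 per Mb over 5 bins, was the steepest of the 10 and exceeded that of 83.8% of protein-coding genes with an early start bin. Sox2 had the shortest run with the limit at RT 0, 599 kb, with edges at 234 kb upstream and 365 kb downstream and a slope of 6.39 log2 per Mb at its start. The dip upstream of Sox2 reached only -0.40, and the one downstream -1.42. Prdm14 had a run of 1299 kb with edges at 726 kb upstream and 573 kb downstream, and RT fell to -1.49 and -2.04 beyond them.

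Tbx3 also formed a peak of its own, but a shallow one. Its run of 740 kb ended 439 kb upstream and 301 kb downstream, where RT dipped to -0.52 and -0.02. The second dip lies within bin noise of 0. With a running median over 5 bins the run of Tbx3 measured 6556 kb and that of Sox2 1285 kb, so the lengths for these genes depend on such dips. With the running median the shortest run was that of Nanog, 967 kb, and with the limit at the median RT of all bins it was again Nanog, 1094 kb against 1485 kb for Sox2. Downstream of the dip, RT rose to 3.76 at 900 kb from the start of Tbx3, higher than at the gene.

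The other 5 genes lay in longer early domains. Tfcp2l1 had a run of 2143 kb whose upstream edge was 513 kb from its start, with RT falling to -4.34 beyond it. It was the only gene of the 10 whose start bin fell in a constant timing region (CTR), a stretch of at least 500 kb with a slope of at most 2.5 log2 per Mb, which here was 600 kb long with a mean RT of 3.29. Of protein-coding genes with a call 16.7% had their start bin in a CTR. Sall4 had a run of 6579 kb and lay 568 kb from its upstream end, with RT falling to -1.63 beyond, and had the smallest slope of the 10, 0.90 log2 per Mb. Klf2 lay near the downstream end of a run of 4218 kb, 694 kb from the edge. Esrrb lay inside a run of 4451 kb, at least 1348 kb from either edge, and the lowest bin of its window still had an RT of 1.57. Pou5f1 lay in a run of 13011 kb, the longest of the 10 with the limit at RT 0, at 863 kb from its downstream edge, beyond which RT fell to -1.54 inside the window. With the limit at the median RT of all bins, -0.98, the run of Tbx3 was longer, 16461 kb against 13155 kb for Pou5f1.

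The median run of the 10 genes was 1721 kb, compared with 2502 kb over protein-coding genes with an early start bin. The median distance to the nearest edge was 541 kb for the 10 genes and 582 kb for those genes, and 4 of the 10, Sox2, Nanog, Klf4 and Tbx3, lay within 500 kb of an edge, next to 45.4% of those genes. Median slopes were 2.13 and 2.46 log2 per Mb. These values are given as descriptions of 10 genes chosen by name.

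The bin of the start was the highest bin of its window for none of the 10 genes. It came within 0.5 of the highest for 9 of them, compared with 49.2% of protein-coding genes with an early start bin. The 10 start bins had an RT of 2.96 to 3.51 and the 99th percentile of all bins was 3.71, so a larger gap was hardly possible. The comparison genes include all start bins above 0, so this count restates the high RT and does not show local peaks. The highest bin lay within 100 kb of the start for 4 genes, compared with 22.8% of protein-coding genes with an early start bin. For Sox2 it was the next bin downstream, at 3.36, and for Prdm14 the bin before the start, at 3.40, both within bin noise of the start bin. For Klf4 the next bin downstream was highest, at 3.30, and for Nanog the highest bin, at 3.64, lay 100 kb downstream. The exception to the margin of 0.5 was Klf2, where a bin 300 kb downstream had an RT of 4.23. That bin holds only 7.25 kb of assembled sequence.

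Aligned at their starts, the 10 genes had a mean RT of 3.33 ± 0.17 (SD, n = 10 genes) in the bin of the start, compared with a mean of 1.35 over all protein-coding genes. The mean was 3.39 in the next bin downstream and 3.10 in the bin before. From 150 kb upstream to 250 kb downstream all 10 genes had an RT above 0. At 1000 kb upstream the mean of the 10 genes had dropped to 0.45, next to 0.39 over all genes, and their SD had risen to 2.22. The values there ran from -2.65 to 3.10. At 1000 kb downstream the means were 0.48 and 0.44. The 10 genes thus stood out from the mean of all genes near their starts and not at 1000 kb, by mean values for which no test was made.

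**Figure D2:**
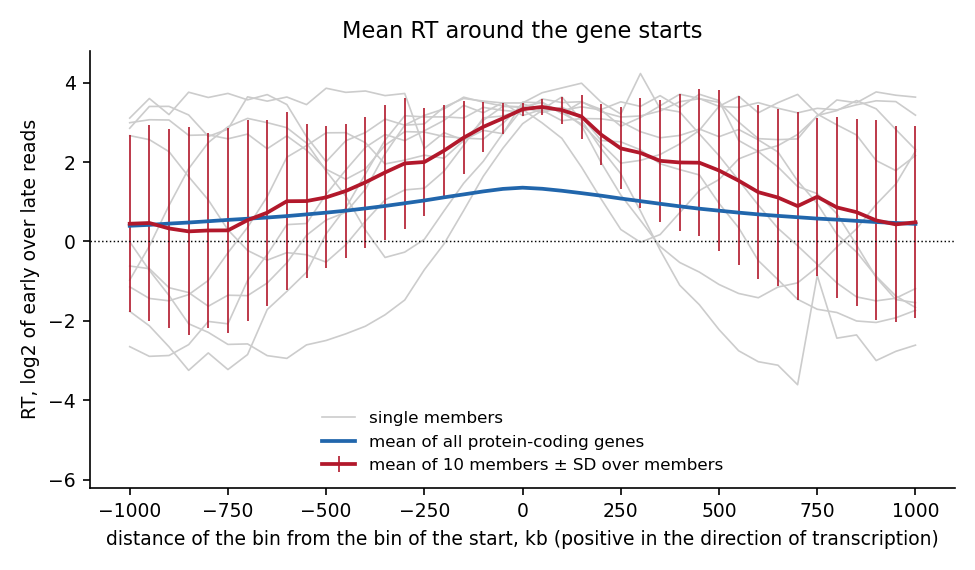
Mean RT (log2 of early over late reads, vertical axis) by distance in kb from the bin of the gene start along the direction of transcription, for the 10 genes (red, bars are the SD over genes), each of them alone (gray) and all protein-coding genes (blue). At distance 0 the red line is at 3.33 and the blue line at 1.35; at -1000 kb they are at 0.45 and 0.39.

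Over the whole window of 41 bins, the pair with the most similar profiles was Sall4 and Tfcp2l1, with a root mean square difference of 0.89, followed by Pou5f1 and Klf2 with 0.90. Esrrb and Nanog were the least alike, with 4.06, although their own RT differed by 0.20 with an interval of -0.15 to 0.55.

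The nearest genes on either side of the 10 were early too, and the number of genes around them varied widely. Several of the nearest genes share a bin with the gene they flank, so their RT in part repeats its value. Pou5f1 shares its bin with Tcf19, Cchcr1 and Psors1c2, so the value of 3.51 belongs to all 4 genes. It sits in the gene-dense histocompatibility region, with 107 other protein-coding gene starts within 1 Mb, of which 105 had RT above 0. To its left the class I gene H2-Q10 had an RT of 2.71. To its right, 956 kb away, H2-M10.4 was the latest gene within 1 Mb, at -1.46. Klf2 shares its bin with Gm10282 and in part with Eps15l1, an endocytic adaptor gene with an RT of 3.70, and all 53 gene starts within 1 Mb of it were early. Over all protein-coding genes the share with RT above 0 was 72.5%. The share among neighbors of other early genes is not given here, so whether these counts and those below are unusual was not tested.

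Nanog lies between Dppa3, a maternal and germ cell factor gene with an RT of 3.24, and the glucose transporter gene Slc2a3 with 3.38. Slc2a3 reaches into the bin of Nanog. Of 30 gene starts within 1 Mb of Nanog 17 were early. The forkhead gene Foxj2 was highest there, at 3.64, and the vomeronasal receptor gene Vmn2r20 lowest, at -3.36. Sox2 and Klf4 had few neighbors. The nearest to Sox2 were Dnajc19 with 2.86, ending 569 kb to its left, and Atp11b with 2.42, starting 1102 kb to its right, and 4 starts lay within 1 Mb. For Klf4 they were the DNA repair gene Rad23b with 3.09, at 135 kb, and Actl7b with 3.03, at 1208 kb, and 2 starts lay within 1 Mb.

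Esrrb is flanked by Gpatch2l with 2.59 and the angiogenesis inhibitor gene Vash1 with 3.12, and all 26 starts within 1 Mb were early. Tfcp2l1 lies between the microtubule regulator gene Clasp1, with 3.22, and Gli2, a transcription factor of hedgehog signaling, with 3.33. Clasp1 reaches into the start bin of Tfcp2l1. Of the 13 starts around Tfcp2l1, 8 were early. Prdm14 lies between Slco5a1, with 2.73, and the coactivator gene Ncoa2, with 2.77, which reaches into its bin. All 6 starts around Prdm14 were early. Tbx3 lies 148 kb from its paralog Tbx5, which had an RT of 1.47, lower by more than bin noise, and 905 kb from Med13l, a Mediator subunit gene with 2.84. Sall4 lies between Atp9a, with 3.23, which reaches into a bin of Sall4, and the zinc finger gene Zfp64, with 3.49. Of the 13 starts around Sall4, 12 were early, as against 13 of 13 around Tbx3.

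Early RT was thus present with both few and many genes nearby. Klf4 had 2 starts within 1 Mb, and only 0.798% of protein-coding genes had fewer. Sox2 had 4, and 2.21% of genes had fewer, whereas 98.7% had fewer than the 107 around Pou5f1. The median was 13 starts for the 10 genes and 29 over all protein-coding genes. The GC content of the start bin varied less, from 45.2% for Nanog to 50.7% for Pou5f1. The median was 47.1% for the 10 genes, 44.4% over the start bins of all protein-coding genes and 41.2% over all bins. GC content can also affect how reads are sequenced and mapped, and its part in these RT values was not tested.

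**Figure D3:**
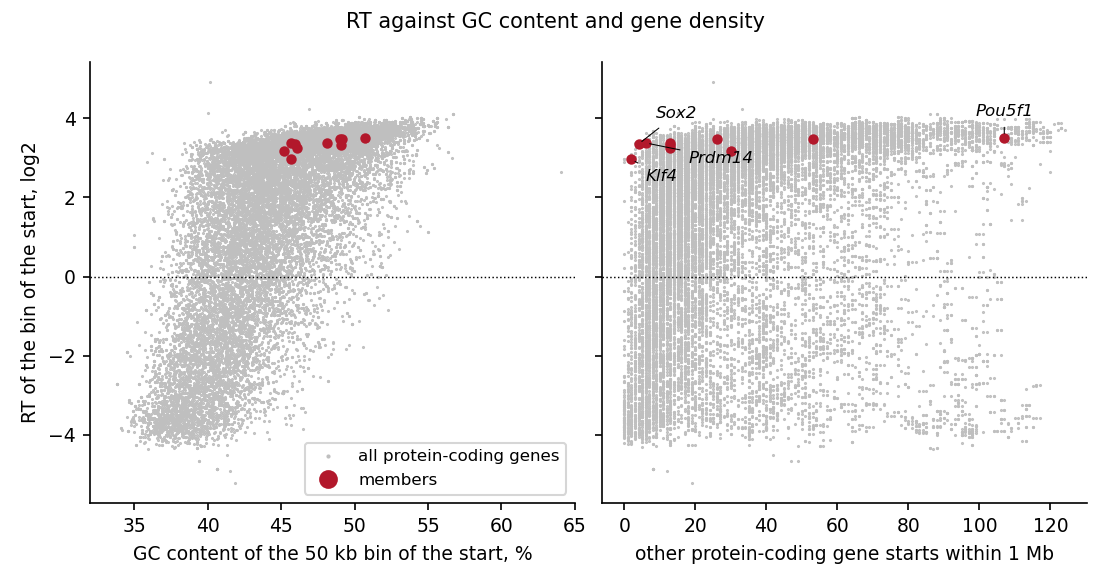
RT of the bin of the gene start (log2, vertical axis) against the GC content of that bin in percent (left) and against the number of other protein-coding gene starts within 1 Mb (right), with all protein-coding genes as gray points and the 10 core pluripotency genes in red. The red points all sit near the top, at GC contents of 45.2% to 50.7% and at 2 to 107 neighboring starts.

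The promoters of these genes were as varied as their surroundings. The RefSeq table (GRCm38.p6) held the promoters of 7 of the 10, all but Prdm14, Tbx3 and Sall4. The 250 bases before the start are shown here for the genes with the highest and the lowest RT, and for Nanog, which was added after its values were seen because it had the fewest CpG dinucleotides. They are written 5′ to 3′ in the direction of transcription, with each CpG, which reads the same on both strands, in capitals. Pou5f1 is at chr17:35505782-35506031 on the + strand, Klf4 at chr4:55532476-55532725 on the - strand and Nanog at chr6:122707239-122707488 on the + strand.
Pou5f1: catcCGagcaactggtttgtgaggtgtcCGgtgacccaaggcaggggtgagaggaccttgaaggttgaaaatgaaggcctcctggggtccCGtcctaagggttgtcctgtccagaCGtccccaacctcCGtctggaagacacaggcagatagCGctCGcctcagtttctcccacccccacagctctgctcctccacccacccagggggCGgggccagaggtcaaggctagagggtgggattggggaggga
Klf4: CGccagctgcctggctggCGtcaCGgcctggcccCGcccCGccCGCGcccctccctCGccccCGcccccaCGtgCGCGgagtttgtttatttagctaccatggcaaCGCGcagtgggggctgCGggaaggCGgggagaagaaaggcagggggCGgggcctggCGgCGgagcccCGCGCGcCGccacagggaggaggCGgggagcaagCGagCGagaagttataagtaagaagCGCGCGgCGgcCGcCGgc
Nanog: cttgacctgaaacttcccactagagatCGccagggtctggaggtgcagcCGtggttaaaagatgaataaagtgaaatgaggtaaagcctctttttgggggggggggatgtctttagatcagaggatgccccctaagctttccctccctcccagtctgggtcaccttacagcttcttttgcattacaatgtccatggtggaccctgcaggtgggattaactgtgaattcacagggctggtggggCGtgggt

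Klf4, with the lowest RT, had the most CpG of the 7, at 32 with a GC content of 74%. Klf2, second in RT, had nearly as many, 29, and Sox2 had 27. Tfcp2l1 had 16. Pou5f1, with the highest RT, had only 8, with a GC content of 62%, Esrrb had 6 and Nanog 3, with a GC content of 52%. Over all 32851 promoters of the table the median was 6, with quartiles of 2 and 16, and 95.4% of promoters had fewer than Klf4 and 29.0% fewer than Nanog. A promoter is a small portion of a 50 kb bin, so RT does not resolve it. The RefSeq start of Sox2 lies 410 bases before the GENCODE start, in the preceding bin. That bin had an RT of 2.72, so by the RefSeq start Sox2 and not Klf4 would have the lowest start bin of the 10.

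The 10 genes were set beside 5 lists of related genes, which were chosen with earlier results of these data known. Contrasts between lists are therefore descriptions only. Of 20 other pluripotency genes, 19 had RT above 0, next to 72.5% of all protein-coding genes, with a median of 2.91. At or above Klf4 were 9 of the 20, as were 36.3% of all protein-coding genes. The highest were Lin28a, which blocks maturation of let-7, at 3.57, and Dppa5a, at 3.43. The lowest were the AKT cofactor gene Tcl1, at 1.65, and the nuclear receptor gene Nr0b1 on X, at -1.46. Nr0b1 was the only gene of this list with RT below 0.

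All 15 genes of LIF and 2i signaling had RT above 0, with a median of 3.17, and 9 were at or above Klf4. The shares over all protein-coding genes were 72.5% and 36.3%. Socs3, the feedback inhibitor of LIF signaling, had 3.81, and Gsk3a, a target kinase of 2i, 3.79. Both were higher than Pou5f1, but within the interval from bin noise. The lowest were the kinase gene Jak1, at 1.77, and the FGF receptor gene Fgfr2, at 1.02. The annotated body of Fgfr2 covers 60 bins, and the bin of its start had an RT of 3.26.

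Of 10 genes of primed pluripotency, the later state that follows the naive state, 7 were early, near the 72.5% of all protein-coding genes. Klf4 was reached or exceeded by 5 of the 10, next to 36.3% of all protein-coding genes. The median of the list was 3.03. The signaling gene Fgf8 had 3.60 and the DNA methyltransferase gene Dnmt3b 3.57. Below 0 were Sox3 on X, at -1.10, the growth factor gene Fgf5, at -2.04, and Cdh2, which encodes N-cadherin, at -2.08.

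Regulators of differentiated lineages were lower. Of 16 genes, 12 had RT above 0, close to the 72.5% of all protein-coding genes, with a median of 1.55. Only Tbx6 was at or above Klf4, next to 36.3% of all protein-coding genes. The mesoderm gene Tbx6 had 3.46 in the bin it shares with the kinase gene Mapk3. Among those below 0 were Sox17, at -0.36, Gata6, at -0.49, and Foxa2, at -0.61, all regulators of endoderm. With the limit at the median RT of all bins, -0.98, 15 of the 16 counted as early.

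**Figure D4:**
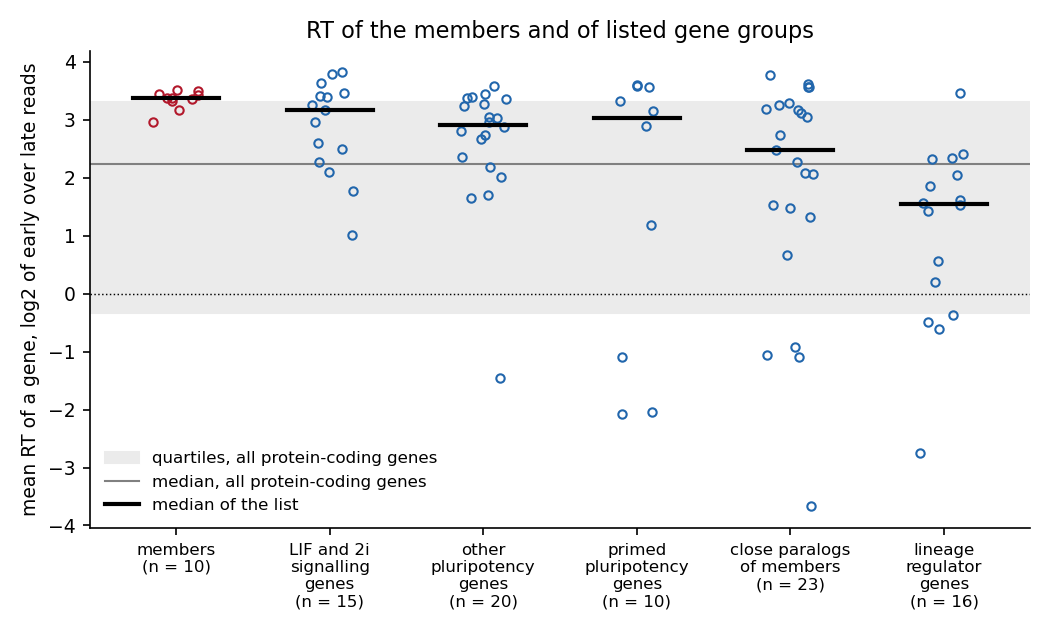
Mean RT of single genes (log2 of early over late reads, vertical axis) for the 10 core pluripotency genes (members, red) and the 5 listed groups (blue); black bars are medians, the gray band spans the quartiles of all protein-coding genes and the gray line is their median. Medians fall from 3.37 for the core genes to 1.55 for lineage regulators, and the core genes have the narrowest spread, an SD of 0.16 against 0.81 or more in the other lists. Genes and lists were chosen with earlier results of these data known.

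Close paralogs of the 10 genes ran from -3.67 to 3.76 in RT. Of 23, 19 (82.6%) were early, next to 72.5% of all protein-coding genes, with a median of 2.47. Of these paralogs 10 were at or above Klf4, next to 36.3% of all protein-coding genes. Among the POU genes, Pou3f1 had 3.57, Pou2f2 3.28, Pou2f1 2.06 and Pou3f2 -1.06, against 3.51 for Pou5f1. Sox15 had 3.76, above Sox2 at 3.35 but within the interval from bin noise. Sox1, the paralog of Sox2 in neural cells, had 1.53 and Sox3 -1.10. Thus for both Pou5f1 and Sox2 the family held genes on either side of RT 0.

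In the Krüppel-like family, Klf1, a regulator of red cell genes, had 3.57, Klf3 3.11, Klf5 3.05, Klf6 0.67 and Klf7 -0.92. Klf5, which acts with Klf2 and Klf4 in mESCs, differed from Klf4 by less than bin noise. Esrrb at 3.37 and Esrra at 3.61 lay far above Esrrg at -3.67, the lowest RT of the list. Tfcp2 had 3.25 and Ubp1 2.08, both below Tfcp2l1, Tfcp2 within the interval from bin noise. The plasma cell and germ cell factor gene Prdm1 had 2.47, below Prdm14. The T-box genes Tbx2, with 2.74, Tbx4, with 2.26, and Tbx5, with 1.47, were all below Tbx3. Of the Sall genes, Sall2 had 3.18, Sall1 3.16 and Sall3 1.32, again all below Sall4. Only Sall3 differed from Sall4 by more than the interval from bin noise. Klf5 and Pou3f1, Sox1 and Sox3 each stand in 2 of the lists.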

How the data were processed

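Population-based replication timing was taken from 4 Repli-seq libraries. The authors converted the reads of each S fraction to RPM and deposited, per bin of 50 kb, the log2 ratio of the early to the late fraction, from which all values here were computed. The submitters' notes name Bowtie2, SAMtools, bedtools and mm10. How replicates were combined, and any filter on bins or smoothing of this profile, is not given in the sources used here. The effect of mapping reads of a hybrid line to a single reference was not tested.

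Positions of the bins on the autosomes and X were checked against the assembly. Mean RT was taken over the bins that overlap a gene body. Noise was the scaled median absolute deviation, within CTRs, between a bin and the average of both adjacent bins, and intervals of differences are 1.96 times the noise of both means. CTRs had at least 10 bins. Scheduled time was the share of bins with higher RT times 10 h. Runs of early bins ended at gaps over 200 kb. On a simulated profile a noise SD of 0.15 was recovered as 0.149, and 1745 of 1745 borders were found within 1 bin. Those borders were large, steep steps between flat early and late levels. Shallow dips such as those beside Tbx3 and Sox2 were therefore not tested by it. With 1 value per bin no test between fractions or genes was made.

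The genes and lists were chosen with earlier results of these data known. Named are the 10 genes, their nearest neighbors, genes that share their bins and the latest or highest gene within 1 Mb where stated, all listed paralogs, and in each other list the highest and lowest 2 and those below 0, except that single values of some lineage regulators are not reported here. Alternatives changed the bins taken, smoothing, the limit of early RT, the ranking, the time scale and the window. Python 3.11.15, numpy 2.4.6, pandas 2.3.3 and matplotlib 3.10.9 were used.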

Additional observations from a re-analysis of the deposited data

How the results depend on the processing

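All 10 genes stayed early under each of the 5 alternatives tried (start bin only, 1 more bin on each side, a running median over 5 bins, and early set above the median RT of all bins or above RT 1). Their median RT lay between 3.31 and 3.36 under the first 3 of these, and the lowest value of any gene was 2.87. Mean RT moved by more than the noise SD of a single bin, 0.16, in 1 gene with the start bin alone. It did so in 4 with the wider bins and in 2 with the running median. Pou5f1 was among the genes that moved in both, and Klf2 was then the highest, at 3.57 and 3.53. The median percentile, 77.7 among protein-coding genes, was 85.5 among all annotated genes and between 77.0 and 84.2 in the other rankings. The median scheduled time of 0.59 h was 0.43 h on a linear scale. The domains depended more on the settings. The median early run, 1721 kb, was 3565 kb with the limit at the median RT and 3181 kb with the running median, with Tbx3 and Sox2 the genes that moved in the latter. The share of window bins above 0, 73.4%, was 82.7% with the limit at the median RT and 90.5% in windows of 500 kb on each side. Counts of early genes stayed within 1.5 times in all 5 lists. No paired analysis was possible because the deposited column has 1 combined value per bin. The unknown depth limits what can be said of single bins, and a culture or allele difference could not be seen.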
